A study of Mus musculus with 4 samples.

Results

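Binding of Ring1B and Dzip3 and the position of ubH2A were examined at 38 Hox genes of the a, b, c and d clusters, out of 22238 protein-coding gene symbols in the GENCODE annotation (release vM1) of the mouse genome build mm9. The genes were taken by name. Around each cluster a window was drawn from 10 kb before the first to 10 kb after the last of these genes, and every listed peak that touched a window was kept. The Ring1B list held 132 such peaks out of 10119. The windows were chr6:52102350-52220874 for the a cluster with 10 genes, chr11:96045630-96239570 for the b cluster with 10 genes, chr15:102741534-102877274 for the c cluster with 9 genes and chr2:74496367-74613200 for the d cluster with 9 genes. The a cluster lies on the minus strand and the others on the plus strand.

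Genome-wide ChIP was performed on E14 mES cells (mouse embryonic stem cells, strain 129/Ola), kept at passage 3-5 without feeder cells. All 4 libraries came from the same kind of culture, N2B27 medium with 1 μM PD0325901 (a MEK inhibitor) and 3 μM CHIR99021 (a GSK3 inhibitor), together called 2i, and 1000 U/ml LIF, and the cells were fixed with 1% formaldehyde. The groups were Ring1B ChIP, Dzip3 ChIP, ubH2A ChIP and input DNA, which is chromatin that was not pulled down. There was 1 library for each, so no difference between libraries has a replicate error and no test was run. The library sizes implied by the listed RPM values (RPM is a read number scaled for sequencing depth) were 48.3 M to 67.0 M reads. These sizes are above the number of uniquely mapped reads that the paper states for its ChIP-seq samples, and the difference was not examined. The antibodies were raised in rabbits by the study, and peak lists give no expression values with which the cell type could be checked.

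Hox genes encode homeodomain transcription factors that give cells along the body axis their regional identity. Within a cluster the genes at the 3' end act in the head and neck and those at the 5' end act in the trunk, limbs and tail, and genes of the same number in different clusters are paralogs. In pluripotent cells Hox genes are mostly silent, and their clusters are a standard example of chromatin held by the Polycomb complexes. Ring1B (Rnf2) is the catalytic subunit of Polycomb repressive complex PRC1 and attaches ubiquitin to histone H2A, and ubH2A is that modified histone. Dzip3 is a RING-finger ubiquitin ligase that can also modify H2A.

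The densest stretches of the Ring1B peaks are shown first. For each cluster, up to 300 bases outside exons are printed from the Ring1B peak with the most Ring1B reads per kb, from the mm9 genome, with each CG in capitals. In the d cluster the densest peak (at Hoxd11) left no stretch of 200 bases outside exons. The next densest is therefore shown, at the Evx2 edge of the window. That peak lies 8808 bp from the nearest annotated start of the 38 Hox genes, and nearer to the start of Evx2. The a cluster sequence lies between Hoxa13 and Hoxa11, the b cluster sequence in an intron of Hoxb2 and the c cluster sequence in an intron of Hoxc11.
a cluster, mm9 chr6:52203561-52203860, minus strand: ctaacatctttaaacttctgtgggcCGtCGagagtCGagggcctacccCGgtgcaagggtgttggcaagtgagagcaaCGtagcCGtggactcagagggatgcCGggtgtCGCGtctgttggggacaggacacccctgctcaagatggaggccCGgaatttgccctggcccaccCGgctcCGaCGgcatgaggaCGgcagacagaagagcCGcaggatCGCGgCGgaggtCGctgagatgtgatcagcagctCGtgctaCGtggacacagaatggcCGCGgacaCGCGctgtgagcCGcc
b cluster, mm9 chr11:96213964-96214263, plus strand: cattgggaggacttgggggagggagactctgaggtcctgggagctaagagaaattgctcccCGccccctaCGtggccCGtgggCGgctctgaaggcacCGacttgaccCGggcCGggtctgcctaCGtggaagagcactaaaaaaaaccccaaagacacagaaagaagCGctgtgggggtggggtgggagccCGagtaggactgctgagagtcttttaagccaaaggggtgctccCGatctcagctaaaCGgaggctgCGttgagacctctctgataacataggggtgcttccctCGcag
c cluster, mm9 chr15:102786375-102786674, plus strand: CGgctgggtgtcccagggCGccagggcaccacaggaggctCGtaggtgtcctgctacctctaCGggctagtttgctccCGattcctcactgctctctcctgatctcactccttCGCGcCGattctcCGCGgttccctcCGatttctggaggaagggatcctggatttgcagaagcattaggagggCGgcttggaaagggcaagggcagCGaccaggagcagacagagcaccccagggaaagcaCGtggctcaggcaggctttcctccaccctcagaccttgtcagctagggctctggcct
d cluster, mm9 chr2:74496750-74497049, plus strand: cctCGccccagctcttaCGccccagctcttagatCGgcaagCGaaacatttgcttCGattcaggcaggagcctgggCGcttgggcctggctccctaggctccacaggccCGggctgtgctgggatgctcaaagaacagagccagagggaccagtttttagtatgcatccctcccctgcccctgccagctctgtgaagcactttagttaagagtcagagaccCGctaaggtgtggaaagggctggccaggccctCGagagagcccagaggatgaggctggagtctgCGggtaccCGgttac

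These stretches held 26, 14, 14 and 11 CG dinucleotides. Their observed over expected CpG ratios, which compare the CG count with that expected from the C and G content, were 0.88, 0.54, 0.49 and 0.40. The 4 peaks had 623, 828, 651 and 654 Ring1B reads per kb, against a median of 334 over all 132 peaks.

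The single Dzip3 peak in the windows lay upstream of Hoxc9, and its whole sequence is shown because it is the place where both proteins had a called peak. It held 13 CG dinucleotides, with a ratio of 0.69.
Dzip3 peak, mm9 chr15:102806326-102806550, plus strand: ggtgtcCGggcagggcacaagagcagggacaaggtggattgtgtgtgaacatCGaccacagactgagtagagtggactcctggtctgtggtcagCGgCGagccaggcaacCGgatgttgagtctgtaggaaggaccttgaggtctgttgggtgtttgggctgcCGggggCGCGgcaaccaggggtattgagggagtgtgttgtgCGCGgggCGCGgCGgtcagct

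Ring1B peaks were found in all 4 clusters. The a cluster held 55, the d cluster 31, the b cluster 28 and the c cluster 18. They covered 29.1 kb of the a window (24.6%), 16.8 kb of the d window (14.3%), 12.9 kb of the b window (6.66%) and 7.89 kb of the c window (5.81%). Over the 565 kb of the windows this came to 234 peaks per Mb, against 3.96 per Mb over all sequenced bases. The windows make up 0.0221% of the sequenced bases and held 1.30% of all Ring1B peaks and 1.61% of their summed length.

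**Figure D1:**
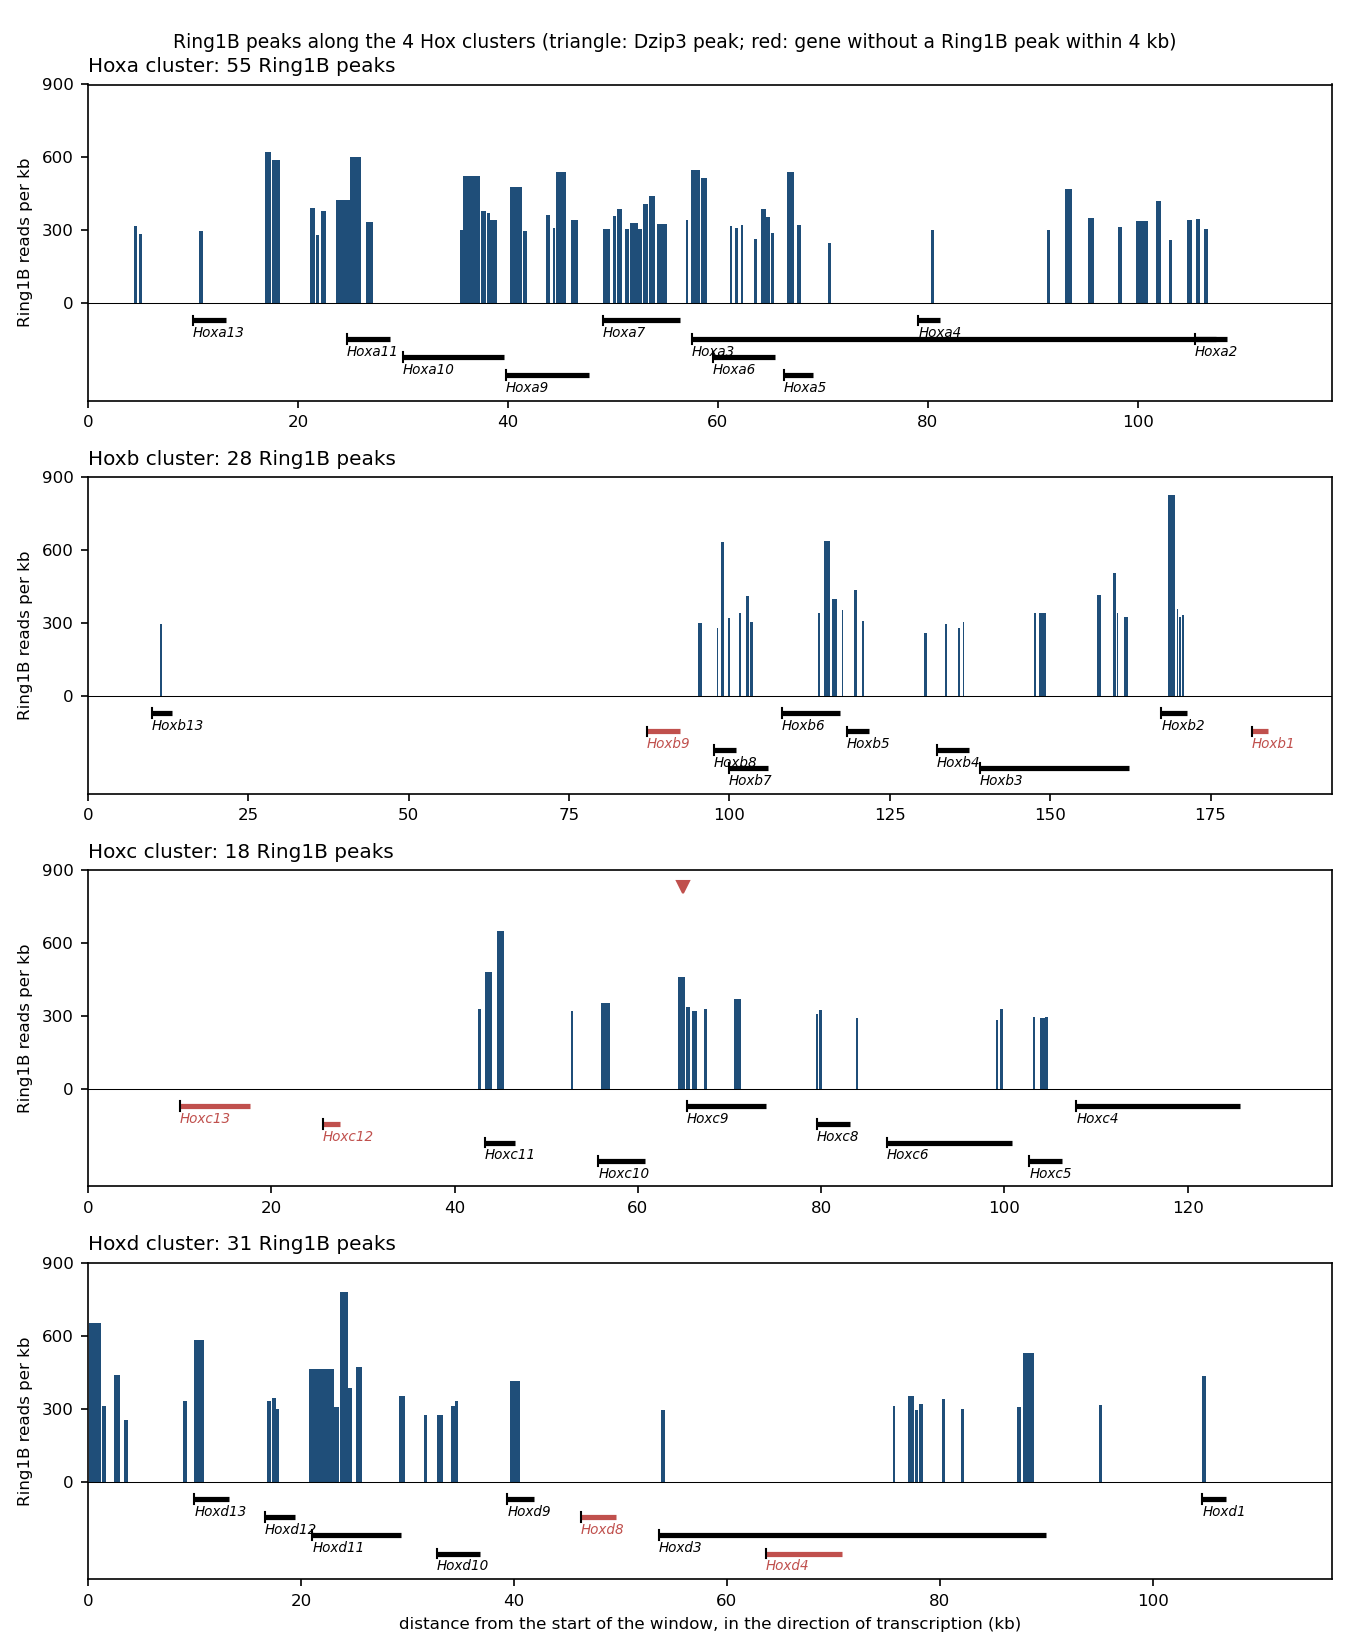
Ring1B peaks along each cluster, drawn to scale with the direction of transcription from left to right. The horizontal axis is the distance from the start of the window in kb, the height of each bar is the number of Ring1B reads per kb of peak, and the lines below are the gene bodies with a tick at the 5' end. The 55 peaks of the a cluster are spread over its length, the b cluster has a stretch of 83.5 kb without a peak, and the single Dzip3 peak (triangle) lies in the c cluster.

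The peaks were short and close together. Their median length was 400 bp, with a range of 200 bp to 2345 bp. When peaks within 500 bp were joined, 74 domains were left: 24, 19, 12 and 19 in the a, b, c and d clusters. The longest domain ran over 6130 bp with 9 peaks in the a cluster, across Hoxa7, and the d cluster had a domain of 4978 bp with 5 peaks at Hoxd11. The largest stretch between neighbouring peaks was 10.8 kb in the a cluster, 15028 bp in the c cluster, 21.4 kb in the d cluster and 83.5 kb in the b cluster. In the c cluster a longer stretch without a peak lies before the first peak, which is 32570 bp from Hoxc13, and takes in Hoxc13 and Hoxc12. Another longer stretch runs from the last peak, in Hoxc5, to the end of the window and takes in the gene body of Hoxc4. The stretch in the b cluster runs from Hoxb13, a gene of the tail bud and prostate, past Hoxb9 to the neighbourhood of Hoxb8. The stretch in the d cluster takes in Hoxd4.

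The Ring1B peaks lay near the starts of the genes. Of the 132 peaks, 23 spanned an annotated transcription start site (TSS) of a Hox gene, 75 lay within 1 kb of a TSS and 118 within 4 kb (89.4%). The median distance was 784.5 bp and the largest 8808 bp. Of the other 9987 Ring1B peaks, 36.0% lay within 4 kb of the TSS of a protein-coding gene. That count takes the starts of any protein-coding gene, whereas the count for the Hox peaks takes only those of the 38 Hox genes. The Hox genes are closely packed, which by itself shortens these distances. The centre of the peak was downstream of the nearest TSS for 83 peaks and upstream for 49. An exon of a Hox gene was overlapped by 79 peaks, 31 lay in an intron and 22 outside the genes. These 22 lay between the genes or in the flanks of the a and d windows. Without the flanks 125 of the 132 peaks were left.

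A Ring1B peak within 4 kb of a TSS was found for 32 of the 38 Hox genes (84.2%). By the same count 10.0% of all protein-coding genes had such a peak. Within 1 kb it was 27 Hox genes against 7.55% of all genes, within 10 kb 35 against 14.2%, and within 100 kb all 38 against 50.4%. All 10 genes of the a cluster had a peak (Hoxa2, Hoxa3, Hoxa4, Hoxa5, Hoxa6, Hoxa7, Hoxa9, Hoxa10, Hoxa11 and Hoxa13). In the b cluster 8 of 10 had a peak (Hoxb2, Hoxb3, Hoxb4, Hoxb5, Hoxb6, Hoxb7, Hoxb8 and Hoxb13). In the c cluster 7 of 9 had a peak (Hoxc4, Hoxc5, Hoxc6, Hoxc8, Hoxc9, Hoxc10 and Hoxc11), and in the d cluster also 7 of 9 (Hoxd1, Hoxd3, Hoxd9, Hoxd10, Hoxd11, Hoxd12 and Hoxd13). Since genes are close to each other, 37 of the 118 peaks counted for more than 1 gene. With each peak given to its nearest gene only, 31 genes kept a peak, and the gene lost was Hoxc4. A TSS lay inside a Ring1B peak for 14 genes, namely Hoxa3, Hoxa7, Hoxa9, Hoxa10, Hoxa11, Hoxb7, Hoxb8, Hoxc8, Hoxc9, Hoxc11, Hoxd1, Hoxd3, Hoxd11 and Hoxd13.

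No Ring1B peak lay within 4 kb of 6 genes. Hoxb1, which patterns the hindbrain, was 10576 bp from the nearest peak, and Hoxb9, a gene of the thoracic region, 7933 bp. Hoxc12 was 16916 bp away and Hoxc13, known for its role in hair follicles, 32570 bp. Hoxd8 was 5709 bp and Hoxd4 6826 bp away, although both lie between genes with peaks. The lists give reads only inside peaks, so the Ring1B level at these 6 genes is not known and is only below what the caller accepted. The CpG ratio of the 1 kb around the TSS had a median of 0.77 for these 6 genes and 0.60 for the 32 genes with a peak. It was 0.45 over all protein-coding genes. The ranges of both groups overlapped (0.42 to 0.92 and 0.32 to 1.00), and the lowest of the 6 lay below the median of the genes with a peak.

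The genes without a peak were spread over the paralogous groups. In 7 of the 13 groups every gene had a peak, and each of the other 6 groups missed 1 gene. Of the anterior genes (groups 1 to 3) 6 of 7 had a peak, of the central genes (groups 4 to 8) 13 of 15, and of the posterior genes (groups 9 to 13) 13 of 16.

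The number of Ring1B reads in the peaks within 4 kb differed widely between the 32 genes, from 74 at Hoxa4 to 2944 at Hoxa9. Values were also far apart within paralogous groups. The 3 Hox9 genes with a peak had 383 reads (Hoxd9), 692 reads (Hoxc9) and 2944 reads (Hoxa9). The 3 Hox11 genes, which pattern the kidney and the middle part of the limb, had 994 reads (Hoxc11), 1796 reads (Hoxa11) and 2574 reads (Hoxd11), and each had a TSS inside a peak. The Hox4 genes were low, with 74 reads at Hoxa4, 237 at Hoxc4 and 243 at Hoxb4, a gene known from blood stem cells. These are sums over peaks, so a gene with more annotated starts or more neighbours is counted over more sequence.

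**Figure D2:**
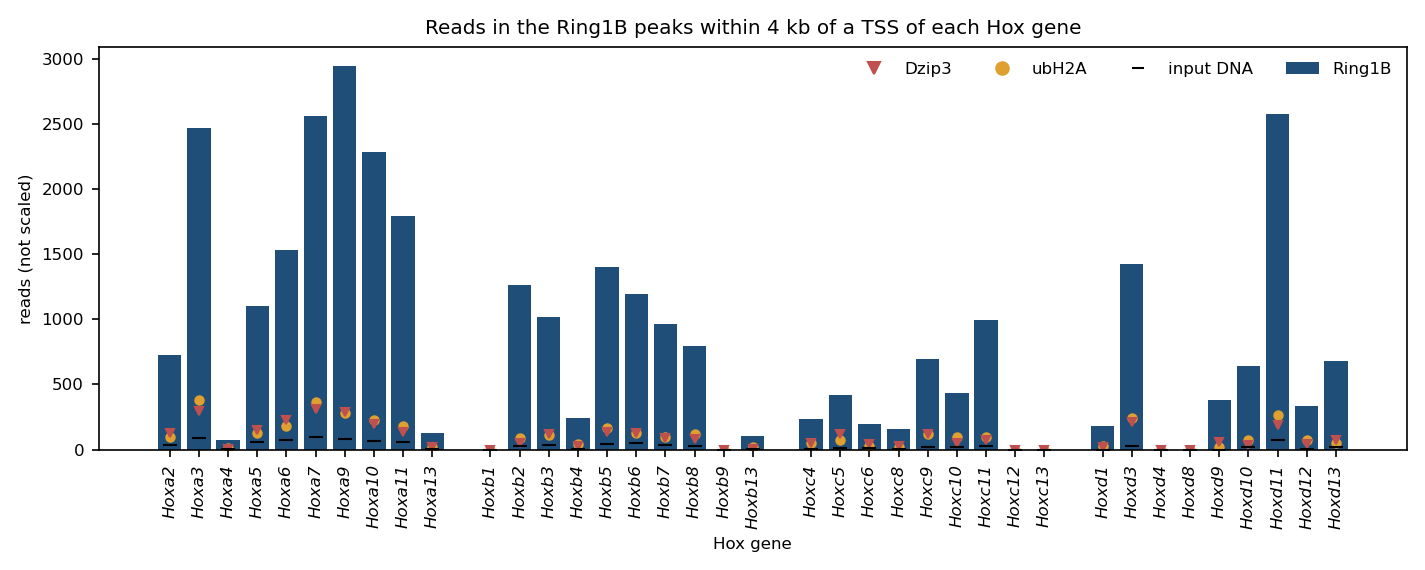
Reads of the 4 libraries in the Ring1B peaks within 4 kb of a TSS of each of the 38 genes, in order of the paralogous group within each cluster; the vertical axis is the number of reads without scaling, bars are Ring1B and symbols are Dzip3, ubH2A and input DNA. Peaks near several genes are counted for each. Hoxa9 has the most Ring1B reads (2944), 6 genes are at 0 because they have no peak, and the Dzip3 and ubH2A symbols stay below 400 reads for every gene.

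In each cluster, the 2 genes with the most Ring1B reads were as follows. Hoxa9, a regulator of blood cell formation, had 10 peaks with 2944 Ring1B, 285 Dzip3, 279 ubH2A and 78 input reads. Hoxa7 had 12 peaks with 2558 Ring1B, 311 Dzip3, 367 ubH2A and 97 input reads. Both genes had about as many Dzip3 as ubH2A reads, and several times fewer of either than of Ring1B. Hoxb5 had 5 peaks with 1404 Ring1B, 135 Dzip3, 166 ubH2A and 44 input reads. Hoxb2, which acts in the hindbrain, had 4 peaks with 1262 Ring1B, 51 Dzip3, 92 ubH2A and 31 input reads. At Hoxb2 a single peak held 955 of the Ring1B reads, the one whose sequence is shown above. Hoxc11 had 3 peaks with 994 Ring1B, 77 Dzip3, 93 ubH2A and 26 input reads. Hoxc9, which sets the thoracic motor neurons apart, had 4 peaks with 692 Ring1B, 121 Dzip3, 118 ubH2A and 18 input reads. Hoxc9 thus had fewer Ring1B but more Dzip3 reads than Hoxc11. Hoxd11 had 8 peaks with 2574 Ring1B, 192 Dzip3, 264 ubH2A and 75 input reads. Hoxd3 had 9 peaks with 1428 Ring1B, 209 Dzip3, 241 ubH2A and 24 input reads. Hoxa3 (11 peaks, 2470 Ring1B reads) and Hoxd3 are each annotated with 6 start sites, some of them far upstream among other Hox genes, and part of their peaks lies there.

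A single Dzip3 peak was listed in the 4 windows. It lay at chr15:102806325-102806550, between genes, 320 bp from a TSS of Hoxc9 and wholly inside a Ring1B peak of 714 bp. Over its 225 bp it held 74 Dzip3, 194 Ring1B, 24 ubH2A reads and 1 input read, and the authors list a fold of 35.4 over input DNA. Its height was 36 extended reads, where the lowest in the Dzip3 list is 33, and 23.9% of all Dzip3 peaks were lower. Hoxc9 was therefore the only one of the 38 genes (2.63%) with a Dzip3 peak within 4 kb, against 3.14% of all protein-coding genes, a share near that background. Within 10 kb of a TSS, 2 of the 38 genes (Hoxc9 and Hoxc10, by the same peak) had a Dzip3 peak, against 6.39% of all genes. Within 100 kb, 15 of the 38 genes had a Dzip3 peak (39.5%), against 36.4% of all genes. They were all genes of the c cluster, by the Hoxc9 peak, and Hoxa2, Hoxa3, Hoxa4, Hoxa5, Hoxa6 and Hoxa7, with 1 or 2 peaks each. These 15 genes share a few peaks and are not separate observations. In the b and d clusters the nearest Dzip3 peak was 657 kb and 511 kb from any TSS of the 38 genes.

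No ubH2A peak was listed in the a, c and d windows. The ubH2A and input lists are incomplete on chromosome 11, so the b cluster was left out of these counts. None of the 28 genes of the a, c and d clusters had a ubH2A peak within 4 kb, against 3.36% of all genes on chromosomes with a complete list, a background too low for 28 genes to show a shortage. Within 100 kb, 3 of the 28 had such a peak, namely Hoxa2, Hoxa3 and Hoxa4 by the same peak, against 39.2%. The nearest ubH2A peak was 67.4 kb from a TSS in the a cluster, 260 kb in the c cluster and 337 kb in the d cluster. No input peak lay in these 3 windows either, and none of the 28 genes had an input peak within 4 kb (1.35% of all genes). For the b cluster, the percentages listed with the 28 Ring1B peaks gave no overlap with a Dzip3, ubH2A or input peak.

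Reads of the other libraries were nevertheless present in the Ring1B peaks. The 132 peaks held 27494 Ring1B, 2967 Dzip3, 3370 ubH2A and 877 input reads. Divided by library size, Ring1B was 29.3 times input DNA (95% interval 27.3 to 31.3), a value fixed by the choice of Ring1B peaks. Dzip3 was 3.07 times input DNA (2.84 to 3.31) and ubH2A 2.77 times (2.57 to 2.99). The intervals are exact conditional binomial intervals and cover counting error only. With library sizes taken from the reads in input peaks, the ratios were 86.3 for Ring1B, 8.16 for Dzip3 and 7.18 for ubH2A, so their size depends on the scaling. After scaling by library size, Dzip3 exceeded input DNA in 106 of the 132 peaks (80.3%), against 94.4% of the 3363 other Ring1B peaks within 4 kb of a TSS and without an input peak and 91.7% of all others. For ubH2A it was 112 peaks (84.8%), against 95.5% and 92.8%. As the median over peaks with 1 read added to each count, the Dzip3 ratio was 2.58 in the Hox peaks, 5.31 in those near a TSS and 4.63 in all others, and the ubH2A ratio 2.31, 4.68 and 3.96. Both ratios were thus above 1 but lower than in other Ring1B peaks. Ring1B exceeded ubH2A in all 132, a count that is also fixed by the choice of Ring1B peaks. The scaled ubH2A reads were 0.90 times the Dzip3 reads (0.86 to 0.95).

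The ratios were above 1 in each cluster. Dzip3 was 2.71 times input DNA (2.43 to 3.03) in the a cluster, 2.62 times (2.21 to 3.11) in the b cluster, 4.55 times (3.62 to 5.79) in the c cluster and 3.66 times (3.10 to 4.34) in the d cluster. The ubH2A ratios had the same order, at 2.53 (2.27 to 2.82), 2.36 (2.00 to 2.79), 3.64 (2.89 to 4.62) and 3.36 (2.85 to 3.97). For ubH2A the c and d intervals lay above those of the a and b clusters. For Dzip3 the c interval did so, and the d interval met that of the b cluster. Input DNA itself was lower in the c and d clusters, at 0.231 and 0.217 RPM per kb against 0.302 and 0.301 in the a and b clusters. The part of input DNA in these differences was not tested. Dzip3 RPM per kb were 0.819, 0.789, 1.05 and 0.796 in the a, b, c and d clusters, so the d cluster did not have more Dzip3 than the a cluster on this scale.

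**Figure D3:**
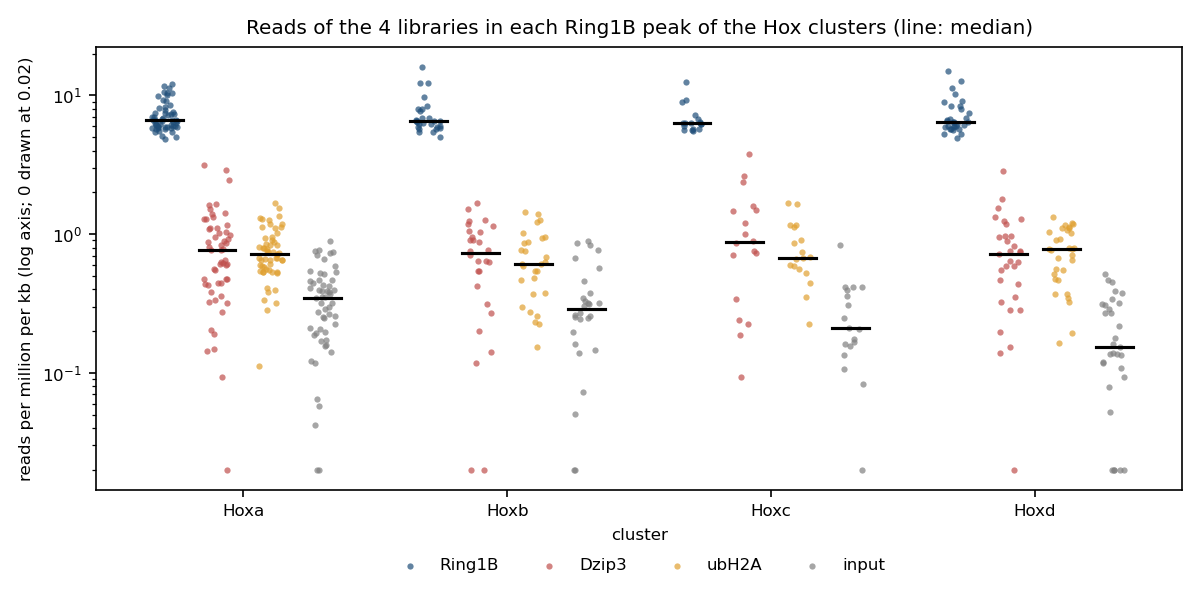
Scaled reads of the 4 libraries in each of the 132 Ring1B peaks, by cluster. Each point is 1 peak, the vertical axis is RPM per kb on a log scale with 0 drawn at 0.02, and the line is the median. Dzip3 and ubH2A lie between Ring1B and input DNA in all 4 clusters and overlap each other.

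By gene, the Dzip3 ratio to input DNA had a median of 3.00 over the 30 genes with input reads in their peaks, and ranged from 0.68 at Hoxb13 to 7.90 at Hoxd3. The ubH2A ratio had a median of 2.58 and ranged from 1.62 at Hoxa5, a gene of the lung and the neck, to 7.23 at Hoxd3. The counting interval lay above 1 for 29 of the 32 genes (90.6%) for Dzip3, the exceptions being Hoxa4, Hoxb2 and Hoxb13. It also lay above 1 for 29 genes for ubH2A, the exceptions being Hoxb13, Hoxc6 and Hoxc8. By the same count it lay above 1 for 86.2% (Dzip3) and 85.7% (ubH2A) of all 2225 protein-coding genes with a Ring1B peak within 4 kb, so the Hox shares were near this background. At Hoxb13 the single peak held 106 Ring1B, 6 Dzip3, 23 ubH2A and 8 input reads. Some genes of the c cluster were among the highest in Dzip3, with a ratio of 7.84 (4.49 to 14.8) at Hoxc5, 7.25 (3.10 to 20.7) at Hoxc4 and 6.09 (3.70 to 10.6) at Hoxc9. Hoxc8 and Hoxc6, which lie between Hoxc9 and Hoxc5, had 5.62 (2.17 to 18.5) and 3.71 (1.89 to 7.95), and the intervals of all 5 genes overlapped. In the same cluster Hoxc10 and Hoxc11 were below the median of 3.00, at 2.89 (1.62 to 5.43) and 2.69 (1.70 to 4.36). Hoxc4 and Hoxc5 share peaks, as do Hoxc5 and Hoxc6, so these genes are not separate observations.

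Input DNA had no reads in the single peaks of Hoxd1 and Hoxd9. Hoxd1, which acts in pain-sensing neurons, had 180 Ring1B, 18 Dzip3 and 28 ubH2A reads. With no input reads only the lower end of the 95% interval of a ratio to input DNA can be given, and it was 3.99 for Dzip3 and 5.12 for ubH2A. Hoxd9 had 383 Ring1B, 61 Dzip3 and 20 ubH2A reads, and the lower ends were 14.5 and 3.56. Hoxd9 differed from Hoxd1 in that its Dzip3 reads outnumbered its ubH2A reads.

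Some Ring1B peaks had many Dzip3 reads without a called Dzip3 peak. The highest Dzip3 density, 3.75 RPM per kb, was in a peak of 200 bp in Hoxc5 with 40 Dzip3, 59 Ring1B and 6 ubH2A reads and no input read. The next was a peak of 207 bp in annotated introns of Hoxa6 and Hoxa3, with 35 Dzip3, 66 Ring1B and 13 ubH2A reads and no input read. The Ring1B peak that contains the called Dzip3 peak, with 100 Dzip3 reads over 714 bp, was at 2.63. These peaks were picked for their Dzip3 density after the values were seen.

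Across the 132 peaks the scaled densities of the libraries showed little relation to each other. The median peak held only 16 Dzip3, 21.5 ubH2A and 6 input reads, and Ring1B densities were bounded by the caller. Low correlations therefore do not show that the libraries are independent. Spearman's rho between Ring1B and Dzip3 reads per kb was 0.13, between Ring1B and ubH2A 0.05 and between Dzip3 and ubH2A 0.09 (n = 132 peaks, which share libraries and lie side by side). Ring1B density was related to the length of the peak (rho 0.63) and less to the CpG ratio (rho 0.31). Input DNA fell with GC content (rho -0.52), whereas Dzip3 rose with it (rho 0.30), and ubH2A showed little relation (rho 0.02). The ratios to input DNA, with 1 read added to each count, rose with GC content (rho 0.56 for Dzip3 and 0.45 for ubH2A), and its part in them was not tested.

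Compared with the other 9987 Ring1B peaks of the genome, those of the Hox clusters rarely had a peak of another library. A Dzip3 peak was overlapped by 0.758% of the Hox peaks (95% Wilson interval 0.134% to 4.17%) and by 33.0% of the others (32.0% to 33.9%). A ubH2A peak was overlapped by 0 of 132 Hox peaks (up to 2.83%) and by 33.7% of the others. An input peak was overlapped by 0 of 132 Hox peaks (up to 2.83%) and by 16.4% of the others. Ring1B peaks near gene starts are the closer comparison. Of the 3599 other peaks within 4 kb of a TSS, 10.5% (9.54% to 11.5%) overlapped a peak of Dzip3 and 11.7% of ubH2A. With input-overlapping peaks also removed, 5.29% (4.59% to 6.10%) of the remaining 3363 overlapped a peak of Dzip3 and 5.86% (5.11% to 6.70%) of ubH2A. The Hox share remained below these for both lists, and its Wilson interval lay below 5.29% for Dzip3 and below 5.86% for ubH2A. Peaks of 1 cluster are neighbours, so the intervals are too narrow.

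**Figure D4:**
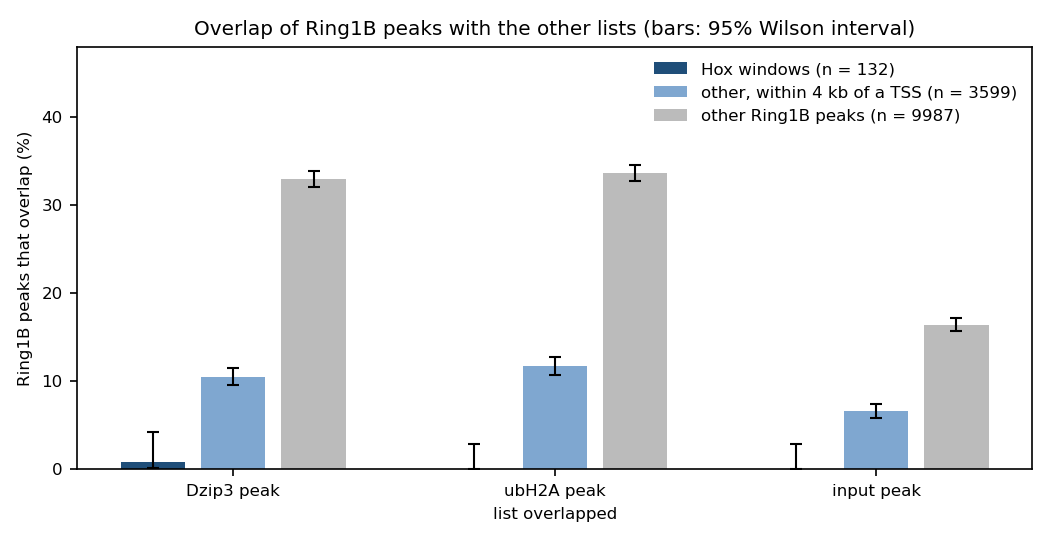
Share of Ring1B peaks that overlap a Dzip3, ubH2A or input peak by at least 1 bp, in percent, for the 132 peaks of the Hox windows, the 3599 others within 4 kb of a TSS and all 9987 others. Error bars are 95% Wilson intervals for counting error. The Hox shares are 0.758%, 0% and 0%, and the shares of all other peaks are 33.0%, 33.7% and 16.4%.

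The Ring1B signal of the Hox peaks was close to that of other peaks. The median Ring1B density of the Hox peaks was 6.46 RPM per kb, against 6.22 in the 3363 other peaks near a TSS and without an input peak. All of these were called as Ring1B peaks, with a height of at least 31 extended reads, so the choice of peaks partly sets this likeness. The Hox peaks were longer, at a median of 400 bp against 333 bp. Their median fold over input DNA was 22.2, above the 13.4 of all other peaks but below the 25.3 of the others near a TSS. The median CpG ratio was 0.59, against 0.30 for all other peaks and 0.65 for those near a TSS. In both features the direction of the difference thus turned with the comparison set.

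At the median, Dzip3 and ubH2A reads per kb were lower in the Hox peaks than in the other sets. The median Dzip3 density was 0.752 RPM per kb (quartiles 0.430 and 1.11) in the Hox peaks. It was 1.15 (0.681 and 1.97) in the other peaks near a TSS without an input peak, and 1.33 (0.753 and 2.27) in the 5793 other peaks with no Dzip3, ubH2A or input peak at all. For ubH2A the medians were 0.682 (0.534 and 0.957), 1.02 (0.655 and 1.64) and 1.19 (0.727 and 1.94). For input DNA the direction turned with the comparison set. Its median was 0.270 in the Hox peaks, above the 0.183 and 0.207 of these sets but below the 0.288 of all 8349 other peaks without an input peak and the 0.380 of all 9987 others. The quartile ranges overlapped in all of these comparisons, and no test was run because peaks are not replicates.

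**Figure D5:**
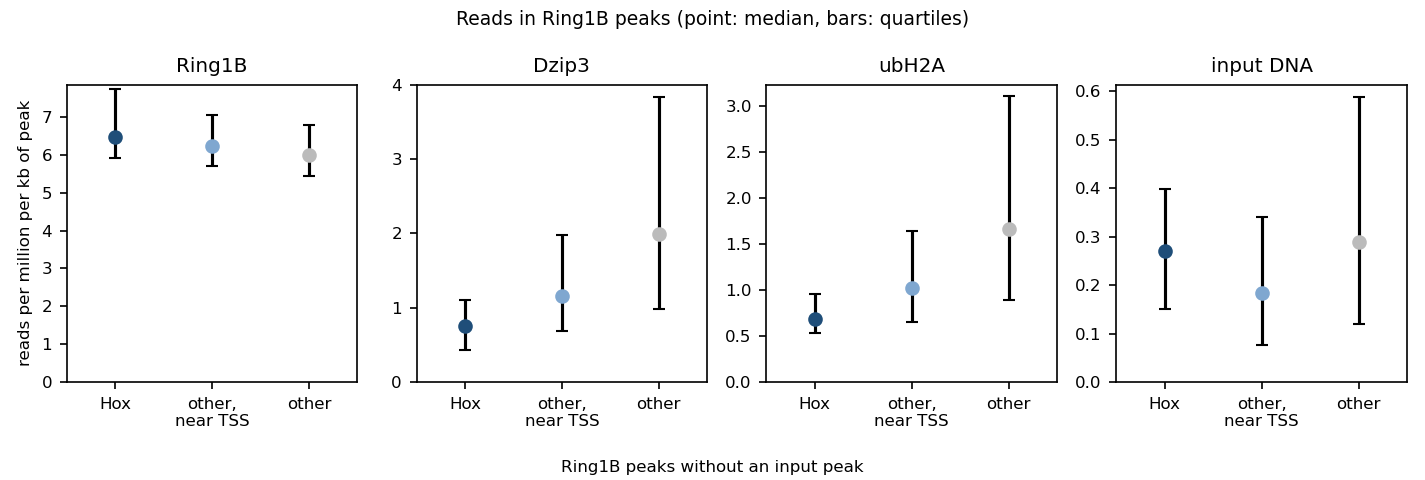
Median scaled reads per kb of the 4 libraries in Ring1B peaks without an input peak, for the Hox windows (n = 132), other peaks within 4 kb of a TSS (n = 3363) and all other peaks (n = 8349). Points are medians, bars run between the quartiles and each panel has its own axis from 0. Ring1B is alike in the 3 sets (6.46, 6.22 and 5.99), which were all chosen as Ring1B peaks. Dzip3 is lowest in the Hox windows (0.752 against 1.15 and 1.99).

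The clusters also hold miRNA genes, of which those of the miR-196 and miR-10 families are known to target Hox mRNAs. Their mature 5p sequences, from the RefSeq table for GRCm38.p6, are shown with the seed (bases 2 to 8) in capitals. The pair of each family shares its seed.
mmu-miR-196a-5p: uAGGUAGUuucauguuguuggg
mmu-miR-196b-5p: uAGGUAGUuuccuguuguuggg
mmu-miR-10a-5p: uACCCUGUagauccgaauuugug
mmu-miR-10b-5p: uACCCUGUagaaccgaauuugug

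Mir196b, within the annotated Hoxa9 gene, lay wholly inside a Ring1B peak with 515 Ring1B, 74 Dzip3, 47 ubH2A and 15 input reads. Mir10a, within the Hoxb4 gene, was 653 bp from a peak with 76 Ring1B and 16 Dzip3 reads, and Mir615, in Hoxc5, was 12 bp from a peak with 145 Ring1B and 9 Dzip3 reads. Mir196a-2 was 2071 bp from the Ring1B peak that contains the Dzip3 peak. Mir10b, which lies in Hoxd4, and Mir196a-1, near Hoxb9, were 7763 bp and 14191 bp from the nearest Ring1B peak. Mir10b and Mir196a-1 lie in the stretches without a Ring1B peak that take in Hoxd4 and Hoxb9, so their distances restate those stretches.

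Among other genes of the Hox network, 7 of 9 cluster neighbours and related homeobox genes had a Ring1B peak within 4 kb (77.8%). These were Evx1 (4 peaks, 959 Ring1B reads) and Evx2 (7 peaks, 2158 reads), which flank the a and d clusters, the ParaHox genes Gsx1 (942 reads), Gsx2 (693 reads), Pdx1 (115 reads) and Cdx2 (1263 reads), and Mnx1 (856 reads), a gene of motor neurons. Some of the Evx2 peaks lie inside the d window and are counted there too, so Evx2 is not a separate observation. Cdx1 and Cdx4 had no Ring1B peak within 4 kb, and Cdx1 had a Dzip3 peak at 1.99 kb from its TSS. Of 8 genes for cofactors of Hox proteins only Meis1 had a Ring1B peak within 4 kb (4 peaks, 456 reads), which is 12.5% of this list and close to the 10.0% of all protein-coding genes. The other 7, Meis2, Meis3, Pbx2, Pbx3, Pbx4, Pknox1 and Pknox2, had none, and none of the 8 had a Dzip3 peak. No ubH2A peak lay within 4 kb of the 16 of these 17 genes that are on chromosomes with a complete list.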

How the data were processed

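ChIP-seq was performed on E14 mES cells under 2i + LIF, with 1 library each for Ring1B, Dzip3, ubH2A and input DNA. The authors aligned reads to mm9 with 1 mismatch allowed and used the Partek Genomics Suite (FDR 0.1) to call the peaks of every library by itself. The deposited lists give counts of reads of all 4 libraries in each peak, the height as RPM, p-values, a scaled ratio (fold) against input DNA, and how many percent of a peak the other lists cover. The labels describe shearing with a Picoruptor, whereas the paper describes micrococcal nuclease.

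Rows with other than 18 fields were left out (1 each from the ubH2A and input lists), which leaves these lists incomplete on some chromosomes, chromosome 11 included. Library sizes were taken from heights over RPM. Overlap meant at least 1 bp, and promoter peaks lay within 4 kb of a GENCODE vM1 TSS. The Hox genes, the other gene lists and the counts to make were chosen with earlier results of these data known. Every gene was named, with full reads for the top 2 per cluster and those with a Dzip3 or ubH2A peak. For genes without a Ring1B peak within 4 kb the distance to the nearest one was given. An item of the gene and sequence lists is not reported here. The functions were tested on simulated data. Alternatives changed the distance, flank, peak strength, joining, overlap, scaling and comparison set. Python 3.11.15, numpy 2.4.6, pandas 2.3.3, scipy 1.17.1 and matplotlib 3.10.9 were used.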

Additional observations from a re-analysis of the deposited data

How the results depend on the processing

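No paired analysis was possible because every target has a single library. Each choice was changed by itself. Of 85 values, 53 stayed within the limits set for a change (1.5 times for counts, the 95% interval for other values), 30 moved and 2 reversed. The number of Hox genes with a Ring1B peak stayed between 27 and 38 of 38 at every distance from 1 kb to 100 kb, and was 31 with the 5' end of each gene only and 30 with the stronger 50% of the list. The number with a Dzip3 peak rose from 1 to 2 within 10 kb and 15 within 100 kb, and with a ubH2A peak from 0 to 3 of 28 within 100 kb. Joining peaks within 500 bp gave 74 in place of 132, and a 50 kb flank gave 2 Dzip3 peaks in place of 1.

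With library sizes from the reads in input peaks, the ratios to input DNA were 86.3 for Ring1B, 8.16 for Dzip3 and 7.18 for ubH2A. The size of these ratios thus depends on the scaling, while each stayed above 1 in the alternatives run. As medians over peaks with 1 read added to each count, they were 22.5, 2.58 and 2.31. In alternatives chosen after seeing the data, they were 32.5, 3.40 and 3.00 without the a cluster, and the Ring1B ratio was 27.1 without the d cluster.

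Ratios of medians, Hox peaks over other Ring1B peaks, changed with the other peaks chosen. For the fold over input DNA, 1.66 became 1.28 without input-overlapping peaks, 0.875 against peaks within 4 kb of a TSS and 1.05 against peaks with no other peak (a set chosen after seeing the data). For the CpG ratio, 1.97 became 1.56, 0.903 and 1.08. For Dzip3 reads per kb, 0.297 became 0.378, 0.609 and 0.566, and for ubH2A reads per kb 0.327 became 0.409, 0.635 and 0.572, so both stayed below 1. The share of other peaks with a Dzip3 peak fell from 33.0% to 22.4% without input-overlapping peaks and to 10.5% near a TSS. For ubH2A 33.7% became 21.8% and 11.7%, and for input DNA 16.4% became 6.56%. The cause of these changes was not tested. Depth limits the values by gene, since input DNA had a median of 6 reads per Hox peak.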
